A study of Mus musculus with 17 samples.

Results

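The retinoic acid genes followed here were 10 of the 22253 genes in the count table, chosen by name because they make, break down, bind or sense retinoic acid. Aldh1a1, Aldh1a2 and Aldh1a3 encode the enzymes that make it, Cyp26a1 and Cyp26b1 those that break it down, Crabp1 and Crabp2 its cellular binding proteins, and Rara, Rarb and Rxra nuclear receptors. The study compared a peripheral subset of the retinal pigment epithelium (RPE), the pigmented cell layer behind the photoreceptors, with its neighbours and with central RPE. All cells came from Serpine3GFP/+ mice at 2 months, heterozygous animals in which GFP was inserted into 1 allele of Serpine3, so that GFP marks cells that use this gene. The mice were otherwise untreated, and every group, controls included, carried the reporter allele.

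The 17 libraries fell into peripheral GFP+-RPE (n = 6), peripheral GFP- cells, named ctrl periphery in the labels (n = 5), and central GFP- cells, named ctrl center (n = 6). Each library was a small pool of cells picked by hand under a microscope, so that fewer cells using a gene and less RNA per cell cannot be told apart in any value below. Mice 1, 2, 4, 5 and 7 gave all 3 groups, mouse 3 only GFP+ cells and mouse 6 only central cells. The libraries of mouse 1 carry 2 animal numbers and were taken as a pool. Animal numbers jump between mouse 3 and mouse 4. Mice 1 to 3 are called the first run and mice 4 to 7 the second run. Differences on logs are also given within each run for Aldh1a3, Rarb and Rxra. Whether the runs were processed apart is not stated. Serpine3, the check of the labels, had 107 to 576 counts in the GFP+ libraries, 5 counts in 1 peripheral GFP- library and 0 in the other GFP- libraries.

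Retinoic acid is formed from vitamin A (retinol) in 2 steps, a reversible oxidation to retinal and an irreversible oxidation to retinoic acid by the ALDH1A enzymes. CRABP proteins carry it in the cytosol, CYP26 enzymes oxidise it for removal, and in the nucleus a retinoic acid receptor (RAR) paired with a retinoid X receptor (RXR) binds response elements near target genes. The RPE is best known for another use of the same substrate, the visual cycle, in which retinol is stored as an ester and turned into the 11-cis-retinal of photoreceptors. In the developing eye, ALDH1A and CYP26 enzymes divide the retina into dorsal and ventral zones.

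A common form of the response element, called DR5, is a direct repeat of a 6-base half-site with 5 bases between the copies, and it is shown here because the gene with the highest level among the 10 carries one. The sequence of the 250 bases before each RefSeq start (GRCm38.p6) was searched on both strands for any pair of half-sites separated by NNNNN, where the consensus half-site AGGTCA could also read as the variant AGTTCA, as the Rarb form GGTTCA or as the variant form GGGTCA. Promoter sequences were matched for 8 of the 10 genes, and Rarb and Cyp26a1 held the element. The Rarb match was fixed by the letters searched, since its own half-site was among them, so it carries no weight against a background. Of the 32851 promoter windows of the genome 0.0883% held the element, which is 0.104% of 27025 genes. Capitals mark the element in the following stretches, each written on the strand of its gene.
Rarb: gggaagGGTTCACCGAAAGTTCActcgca
Cyp26a1: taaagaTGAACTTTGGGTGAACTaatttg

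The Rarb stretch lies at chr14:16575507-16575535, minus strand, with the element 37 to 53 bases before the RefSeq start. In the GENCODE M21 annotation, the element overlaps an exon of Rarb itself. The Cyp26a1 stretch lies at chr19:37697770-37697798, plus strand, with its element read on the minus strand 16 to 32 bases before the RefSeq start. The match describes letters only and does not show binding. The 2 genes that share the element had opposite levels in these cells, as Rarb reached 732 counts in a library and Cyp26a1 no more than 2. Of the 28 genes of the genome with the element, 12 were in the count table, and only Rarb and Blvrb had at least 10 counts in 9 or more libraries. Of all genes in the table, 41.4% did. None of 19 matched genes of the retinoic acid target list held it in this window.

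Total counts per library ranged from 9896118 to 22467079, and 5392 to 10543 genes had at least 10 counts. Levels below are counts, or CPM, which are counts scaled to a common library total, here by TMM, and a level at or under 3 counts was treated as not detectable, since a count of 0 allows up to 3. That floor corresponds to 0.116 to 0.554 CPM in a single library and covers counting error only, because PCR copies were counted. The cells carried the profile of RPE: 19, 18 and 16 of 20 RPE identity genes had a mean of at least 10 CPM in GFP+, peripheral GFP- and central GFP- libraries, and only Best1 never exceeded 3 counts. Mitochondrial transcripts took 0.71% to 17.2% of counts in GFP+, 12.5% to 30.4% in peripheral GFP- and 13.7% to 47.3% in central GFP- libraries, and central mouse 5 was the library with the most mitochondrial counts and the fewest genes.

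The summed markers of most other cells were low beside these, and the sum of the Mueller glia list was not. The summed level of 14 ciliary and iris epithelium genes was 121 to 231 CPM in GFP+, 103 to 219 in peripheral GFP- and 127 to 287 in central GFP- libraries, with 6 of the 14, Otx1 and Wfdc1 among them, never above 3 counts. For 23 photoreceptor genes the ranges were 348 to 483, 290 to 393 and 440 to 508 CPM, with 5 of the 23 never above 3 counts and Rcvrn at 0 in all. For 13 choroid stroma genes they were 74.6 to 261, 28.0 to 141 and 10.3 to 129 CPM. For 21 amacrine, bipolar, horizontal and ganglion cell genes they were 82.4 to 211, 98.9 to 252 and 108 to 238 CPM, and for 12 endothelial genes 7.97 to 27.0, 1.27 to 26 and 0.333 to 17.1 CPM. For 13 macrophage genes they were 38.1 to 111, 105 to 147 and 68.5 to 118 CPM, with 9 of the 13 never above 3 counts. The GFP+ sums thus lay lower in part. Single genes made up much of some of these sums. Csf1r of the macrophage list averaged 59.9, 122 and 90.7 CPM in GFP+, peripheral GFP- and central GFP- libraries. Ogn of the choroid stroma list averaged 164, 71.6 and 68.7 CPM, and Gnb1 of the photoreceptor list 260, 197 and 252 CPM. The 13 Mueller glia genes summed to 28741 to 48358, 20299 to 47328 and 20337 to 52448 CPM, beside 53120 to 107479 CPM for the RPE identity list over all libraries. Few genes held most of this sum. Rgr, which RPE also expresses, averaged 25438 CPM in GFP+ cells, Clu 7638 and Apoe 3432 CPM. In each group 5 of the 13 genes had a mean of at least 10 CPM. Of the 13, 7 never exceeded 3 counts in GFP+, 4 in peripheral GFP- and 5 in central GFP- libraries, and Gfap was at 0 in all. Vim, an intermediate filament gene of this list, was the only gene of all lists that was called in a comparison. It had 114 to 216 CPM in GFP+, 21.4 to 51.1 in peripheral GFP- and 25.3 to 143 in central GFP- libraries, with a log2 fold change of 2.33 (SE 0.30, adjusted p = 0.00392, edgeR) for GFP+ against peripheral GFP- cells and no overlap between these groups. The 7 melanocyte genes, several shared with RPE, summed to 624 to 1265, 421 to 1025 and 158 to 769 CPM. The part of other cells in the values below was not tested.

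Of the 10 retinoic acid genes, 5 exceeded 3 counts in at least 1 library (Aldh1a3, Cyp26b1, Rara, Rarb and Rxra). In GFP+ libraries 3 did (Aldh1a3, Rarb and Rxra), and in each of the GFP- groups all 5 did. In the plot of counts by library, no enzyme or binding protein gene exceeded 34 counts, whereas the receptors Rarb and Rxra reached 732 and 272. Some libraries had as few counts of Rarb or Rxra as of the enzymes, and the receptor Rara did not exceed 50. Only Rarb and Rxra passed edgeR's filter on low counts, the same 2 in each of the 3 comparisons. No gene of the 10 was called in any comparison (edgeR's quasi-likelihood test, Benjamini-Hochberg adjusted p under 0.01 and log2 fold change beyond 1 in either direction), neither of the 2 genes tested reached an unadjusted p under 0.05 in edgeR, and none of the 10 had group ranges that did not overlap. Among all genes tested for GFP+ against central, GFP+ against peripheral GFP- and peripheral against central GFP- cells, edgeR called 0.0431%, 0.0396% and 0%, unadjusted p-values under 0.05 were found for 5.8%, 5.58% and 2.7%, and group ranges did not overlap for 1.13%, 1.29% and 0.755%. DESeq2 called 1.62%, 0.571% and 0.258% of the genes to which it gave an adjusted p, and 0 of the 4 retinoic acid genes among them in each comparison. It gave an unadjusted p under 0.05 to 13.4%, 11% and 7.68%, and to 1 retinoic acid gene in 1 comparison (Cyp26b1, below). The number of genes tested by edgeR was 9286, 10102 and 9535, and the biological coefficient of variation was 1.22, 1.07 and 1.29. Serpine3, the gene that marks the GFP+ cells, had separate ranges and was likewise not called by edgeR (adjusted p = 0.0699 against central and 0.255 against peripheral GFP- cells), whereas DESeq2 called it in both comparisons (adjusted p = 4.67e-15 and 1.3e-10). A gene that was not called by edgeR can therefore differ widely between groups. With this spread between pools, the data do not show that Rarb or Rxra are equal between groups.

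**Figure D1:**
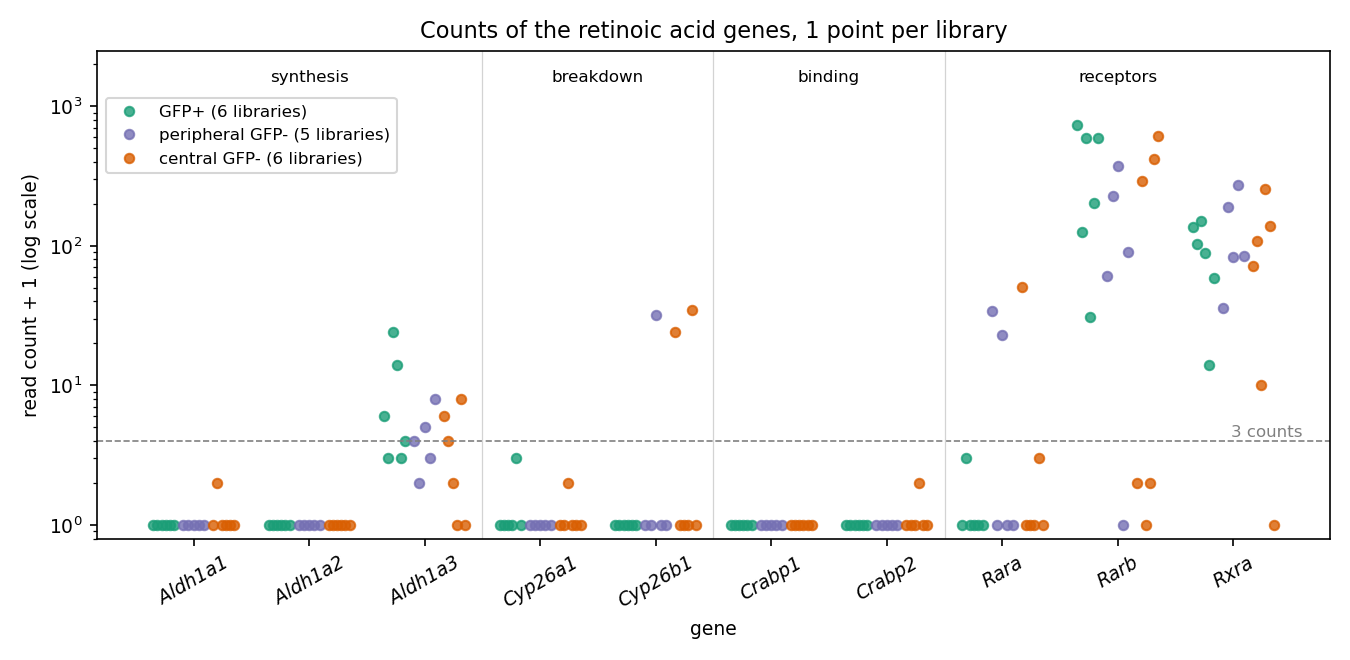
Read count + 1 of each retinoic acid gene (log scale), 1 point per library, coloured by group; the dashed line marks 3 counts. Aldh1a2 and Crabp1 lie at 0 in all 17 libraries, and Rarb and Rxra reach 732 and 272 counts.

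Transcripts of the enzymes that form retinoic acid were few or absent. Aldh1a1, the dorsal enzyme of the developing retina (chr19:20492715-20643465, plus strand), had 1 count, in central mouse 2, among all 17 libraries. Aldh1a2, the main enzyme of the early embryo (chr9:71215789-71296243, plus strand), had 0 counts throughout. Over the 255184826 counts of all libraries this allows up to 0.0118 CPM for counting error alone, without the spread between pools.

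Aldh1a3, the ventral enzyme (chr7:66390890-66427517, minus strand), was the one synthesis gene with reads in most pools. In GFP+ cells it had 5, 2, 23, 13, 2 and 3 counts in mice 1, 2, 3, 4, 5 and 7. In peripheral GFP- cells it had 3, 1, 4, 2 and 7 counts in mice 1, 2, 4, 5 and 7, and in central cells 5, 3, 1, 0, 7 and 0 in mice 1, 2, 4, 5, 6 and 7. Most of these values are at or close to the floor, and the groups overlap. Only GFP+ mice 3 and 4 had at least 10 counts. The study reports higher ALDH1A3 in the peripheral RPE of macaques and humans, in bulk RNA-seq rather than small mouse pools.

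Aldh1a3 averaged 0.429 CPM ± 0.445 (SD, n = 6) in GFP+, 0.252 ± 0.252 (n = 5) in peripheral GFP- and 0.202 ± 0.222 (n = 6) in central cells. The GFP+ mean was 0.22 above the central mean on the log2(CPM + 1) scale, a difference within the spread of the libraries (two-sided exact permutation test, p = 0.305), and 0.10 and 0.27 above it within the first and second runs of animal numbers. Against peripheral GFP- cells the difference was 0.16 (exact permutation test, p = 0.459), and peripheral exceeded central by 0.06 (exact permutation test, p = 0.742). Within the first and second runs, GFP+ minus peripheral GFP- was 0.32 and 0.05. Peripheral minus central was -0.22 and 0.22, so its sign differed between the runs. Since the gene did not pass the filter it has no adjusted p from edgeR. DESeq2, the tool the study names, gave a log2 fold change of 0.99 against central cells (adjusted p = 0.801). In the same mouse the GFP+ library exceeded the central library in 3 of 5 mice and the peripheral GFP- library in 3 of 5.

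The breakdown enzymes were listed at 0 in most pools. Cyp26a1, the retinoic acid hydroxylase induced by its own substrate (chr19:37697798-37701536, plus strand), had 2 counts in GFP+ mouse 5, 1 in central mouse 4 and 0 elsewhere. Cyp26b1, its paralog (chr6:84571414-84593908, minus strand), was either absent or clearly present: it had 31 counts in peripheral GFP- mouse 4, 23 in central mouse 1, 34 in central mouse 6 and 0 in the other 14 libraries. All 6 GFP+ libraries were thus at 0, and so were 4 of 5 peripheral and 4 of 6 central GFP- libraries. Over the joint total of the GFP+ libraries, 0 counts allow up to 0.0298 CPM for counting error alone. That limit leaves out the spread between pools, so it does not bound the mean level of GFP+ cells. DESeq2 gave Cyp26b1 an unadjusted p of 0.0374 for GFP+ against central cells, the only one of the 10 genes under 0.05 in any comparison, with an adjusted p of 0.314. The exact permutation test for the same comparison gave p = 0.455. In edgeR with no filter on low counts, Cyp26b1 was lower in GFP+ cells at an unadjusted p of 0.00784 against central (adjusted p = 0.184) and 0.0112 against peripheral GFP- cells (adjusted p = 0.302). The first value rests on 2 central libraries with reads and the second on 1 peripheral library.

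The transcripts of both binding proteins were undetectable. Crabp1 (chr9:54764748-54773110, plus strand) had 0 counts in all 17 libraries and Crabp2 (chr3:87948666-87953376, plus strand) 1 count, in central mouse 5. Fabp5, which can also carry retinoic acid to nuclear receptors, had 25 counts in peripheral GFP- mouse 1 and at most 2 in any other library.

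Among the RAR genes, Rarb carried nearly all reads. Rarb (chr14:16430839-16819156, minus strand), a receptor gene that is itself a target of retinoic acid, had a lowest count of 30, a median of 394.5 and a highest of 732 in GFP+ cells, so that every GFP+ library was above the floor. In peripheral GFP- cells it had 60, 228, 372, 0 and 89 counts in mice 1, 2, 4, 5 and 7. In central cells it had a lowest count of 0, a median of 146 and a highest of 615, with 291, 419 and 615 counts in mice 2, 6 and 7 and at most 1 in mice 1, 4 and 5. The GFP- groups were split between pools with many reads and pools with next to none. In CPM the GFP+ values (2.26 to 28.4) lay inside the range of the central ones (0 to 68.2).

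**Figure D2:**
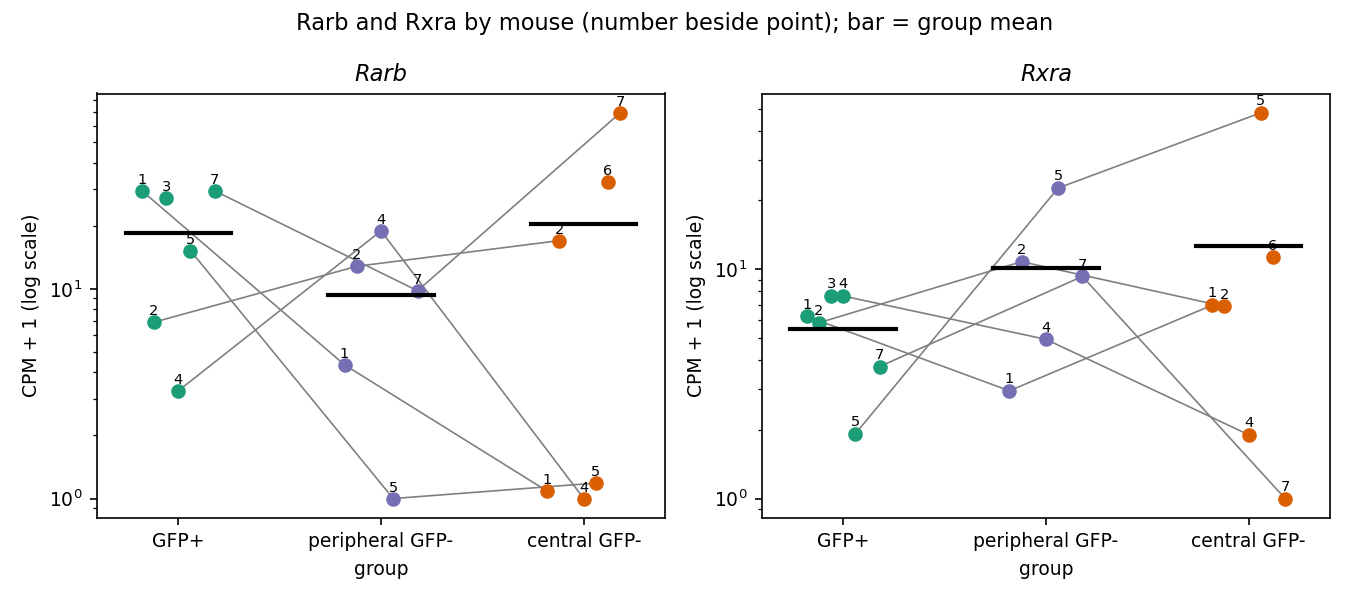
CPM + 1 of Rarb and Rxra (log scale) by group; points are libraries with the mouse number beside them, grey lines join the libraries of 1 mouse, and black bars are group means of CPM. For Rarb, 4 GFP- libraries lie at or near 0, whereas the GFP+ libraries range from 2.26 to 28.4 CPM. For Rxra, the highest values are in mouse 5, at 21.6 CPM in peripheral GFP- and 47.1 CPM in central cells.

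Rarb averaged 17.5 CPM ± 11.7 (SD, n = 6) in GFP+, 8.37 ± 7.04 (n = 5) in peripheral GFP- and 19.3 ± 27.0 (n = 6) in central cells. The log2 fold change of GFP+ against central cells was -0.20 (SE 1.37, adjusted p = 1.00, edgeR), whereas the difference of mean log2(CPM + 1) was 1.23 in favour of GFP+ (exact permutation test, p = 0.325, adjusted p = 0.722), and 2.04 and 0.66 within the first and second runs. The sign therefore differs between the scale of means and that of logs. Without central mouse 7, the highest library at 68.2 CPM, the edgeR value was 0.88, and with the mouse as a block it was 3.99 (adjusted p = 0.914). The GFP+ library exceeded the central one of the same mouse in 3 of 5 mice.

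Against peripheral GFP- cells the log2 fold change of Rarb in GFP+ cells was 1.10 (SE 1.11, adjusted p = 1.00, edgeR), with a difference of 1.16 on the log2(CPM + 1) scale (exact permutation test, p = 0.232), again with 3 of 5 mice higher. Peripheral GFP- against central cells gave -1.26 (SE 1.75, adjusted p = 1.00, edgeR) and a difference of 0.07 on the log2(CPM + 1) scale (exact permutation test, p = 0.963), so that the sign turned here too. On that scale, GFP+ minus peripheral GFP- was 1.24 and 0.99 within the first and second runs. Peripheral minus central was 0.80 and -0.33, so its sign differed between the runs. None of these differences exceeded the spread between libraries. The comparisons share libraries and are not independent of each other.

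Part of Rarb cannot be told from a neighbour if strand was not used in counting. In GENCODE M21, 1793 of its 5265 exon bases (34.1%) lie under exons of Top2b, a topoisomerase gene on the other strand, and 227 (4.31%) under Gm48162. Top2b had 0 to 2258 counts, with a median of 862. In the 4 libraries where Rarb was at most 1 count, Top2b had 2258 counts in peripheral mouse 5, 531 in central mouse 1, 0 in central mouse 4 and 1060 in central mouse 5. Across the 17 libraries, log2(CPM + 1) of both genes had a Pearson's r of 0.05, given as a description of libraries that share their depth.

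The genes whose levels were most like Rarb over the 17 libraries were Fbxo38 (Pearson's r of 0.87 for log2(CPM + 1)), Elf2 (0.86) and Mul1 (0.84), out of 7931 genes with at least 10 counts in 12 or more libraries. The same measure of Rarb had an r of 0.23 with the number of genes that had at least 10 counts and of -0.39 with the mitochondrial share. These are descriptions over libraries that share depth and RNA quality.

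The other RAR genes appeared in single pools. Rara, the broadly expressed receptor (chr11:98927818-98974942, plus strand), had 33 and 22 counts in peripheral GFP- mice 1 and 4, 50 in central mouse 1, 2 in GFP+ mouse 2, 2 in central mouse 6 and 0 in the other 12 libraries. In edgeR with no filter on low counts, Rara was lower in GFP+ cells at an unadjusted p of 0.0354 against central (adjusted p = 0.231) and 0.0391 against peripheral GFP- cells (adjusted p = 0.330). Rarg, the third RAR gene, had 139 counts in peripheral GFP- mouse 5, 25 in GFP+ mouse 5, 23 in central mouse 2 and at most 2 elsewhere. In the plot of receptor genes by library, Rarb made up 89.0% to 100% of the RAR level in the GFP+ libraries. In peripheral GFP- mouse 5 that level was all Rarg, in central mouse 1 it was 96.2% Rara, and in central mouse 4 no RAR gene had a read. Central mouse 5 had a single Rarb read.

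**Figure D3:**
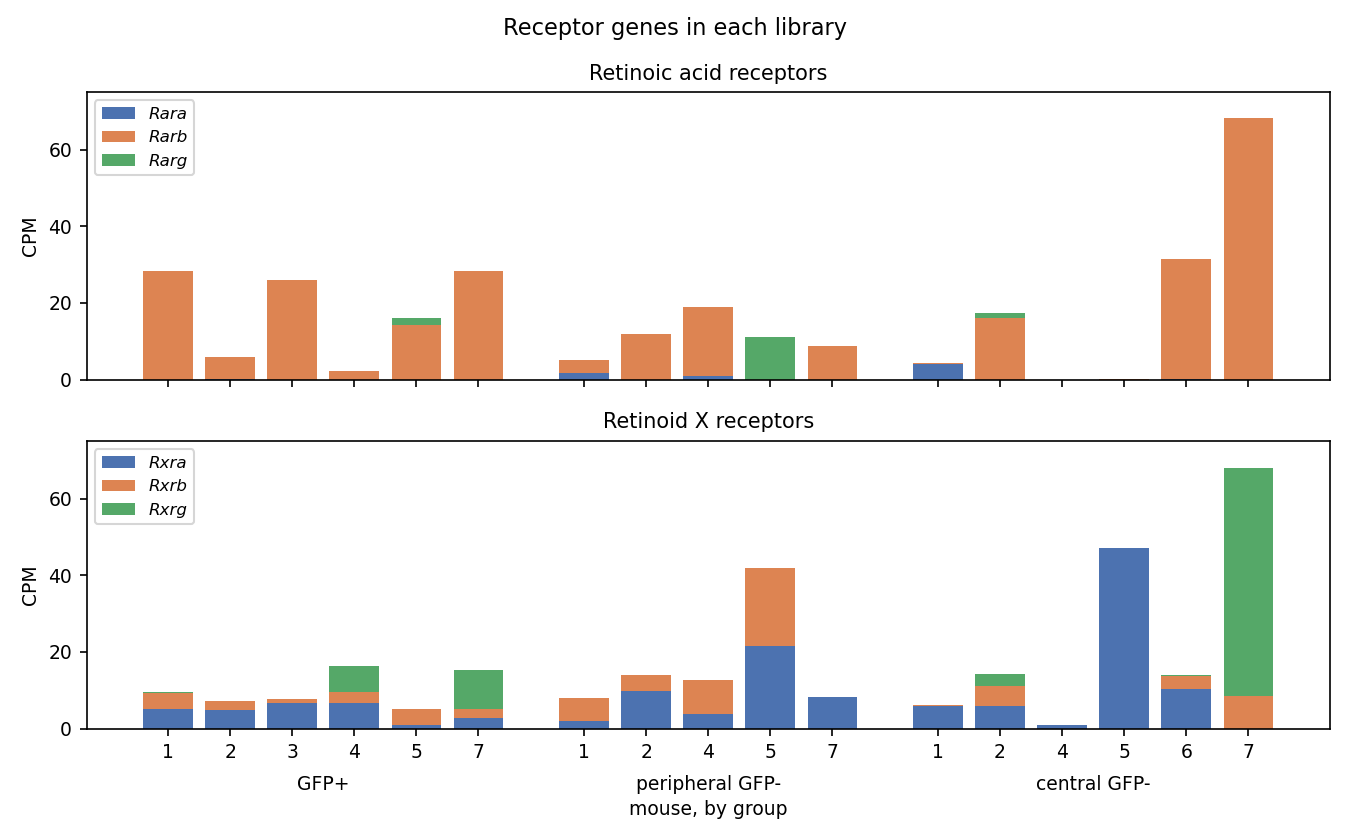
CPM of the RAR genes (upper panel) and RXR genes (lower panel) in each library, stacked by gene; libraries are ordered by group and mouse number. Rarb fills most of the upper bars, while the lower bars change their leading gene between libraries, up to 59.4 CPM of Rxrg in central mouse 7.

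Rxra, the partner receptor (chr2:27676440-27762957, plus strand), was the member found in the most pools, above the floor in 16 of 17. In GFP+ cells it had a lowest count of 13, a median of 95 and a highest of 150. In peripheral GFP- cells it had 35, 189, 82, 272 and 84 counts in mice 1, 2, 4, 5 and 7, and in central cells a lowest count of 0, a median of 89 and a highest of 255. GFP+ pools were the most even, and the central pools ran from none in mouse 7 to 47.1 CPM in mouse 5.

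Rxra averaged 4.51 CPM ± 2.27 (SD, n = 6) in GFP+, 9.12 ± 7.67 (n = 5) in peripheral GFP- and 11.7 ± 17.8 (n = 6) in central cells. Its log2 fold change was -1.56 (SE 1.38, adjusted p = 1.00, edgeR) for GFP+ against central cells, and the GFP+ library was the higher one in 2 of 5 mice. It was -1.0 (SE 1.06, adjusted p = 1.00, edgeR) against peripheral GFP- cells and -0.50 (SE 1.48, adjusted p = 1.00, edgeR) for peripheral against central GFP- cells. On the log2(CPM + 1) scale the first difference was -0.28 (exact permutation test, p = 0.760) and -0.08 and -0.57 within the first and second runs, the second was -0.68 (exact permutation test, p = 0.271), and the third was 0.40 (exact permutation test, p = 0.706), opposite in sign to its edgeR value. Within the first and second runs, the second difference was 0.21 and -1.41 and the third was -0.30 and 0.84. The signs of both thus differed between the runs. Against peripheral GFP- cells too, the GFP+ library was the higher one in 2 of 5 mice. Without central mouse 5, in which mitochondrial transcripts took 47.3% of counts, the first edgeR value was -0.05 and the third 0.97, and with the mouse as a block the first was 0.63.

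The other RXR genes complemented Rxra in part of the pools. Rxrb had 25 to 105 counts in the GFP+ libraries and 0 to 255 in the GFP- ones. Rxrg, which cone photoreceptors use, had 89 and 216 counts in GFP+ mice 4 and 7, 58 and 536 in central mice 2 and 7, at most 3 in the other GFP+ and central libraries and 0 in all 5 peripheral GFP- libraries. The fold changes of Rxrb were -0.06 (SE 1.32) on the log2 scale against central and -1.47 (SE 1.29) against peripheral GFP- cells, and neither was called. Rxrg did not pass the filter.

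Levels of different genes were compared as CPM per kilobase of exon, averaged over the 17 libraries. Rarb stood at 2.94 ± 3.33 (SD) CPM per kb, Rxrg at 2.05 ± 6.27, Rxra at 1.54 ± 2.05 and Rxrb at 1.1 ± 1.24. Neighbours in this order differed by less than their SD. Below them came Rarg at 0.197, Rara at 0.0991, Cyp26b1 at 0.0657, Aldh1a3 at 0.0643, Crabp2 at 0.00822, Cyp26a1 at 0.00714 and Aldh1a1 at 0.000655 CPM per kb, each with an SD larger than its mean, and Aldh1a2 and Crabp1 at 0.

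Several genes of the steps before retinoic acid were orders of magnitude higher, as the plot along the pathway shows. Lrat, which esterifies retinol for storage, stood at 277 ± 89.0 CPM per kb (SD, n = 17), and Stra6, the receptor that takes up retinol from its plasma carrier, at 114 ± 36.7 CPM per kb. Of the enzymes between retinol and retinal, Rdh10, which oxidises retinol, stood at 498 ± 87.4, Adh5, an alcohol dehydrogenase of broad use, at 64.9 ± 13.1, Dhrs3, which reduces retinal back to retinol, at 32.9 ± 11.2 and Rdh11, a retinal reductase, at 31.7 ± 16.2 CPM per kb. Thus these genes of retinol uptake, storage and conversion to and from retinal were high, and those of the next step, from retinal to retinoic acid, were at or near the floor. Not all genes of the earlier steps were high. Of the uptake and storage list 2 of 10 genes, and of the retinol and retinal list 4 of 14, never exceeded 3 counts. Rdh1 of the latter list averaged 0.0227, 0.147 and 0.148 CPM per kb in GFP+, peripheral GFP- and central cells.

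**Figure D4:**
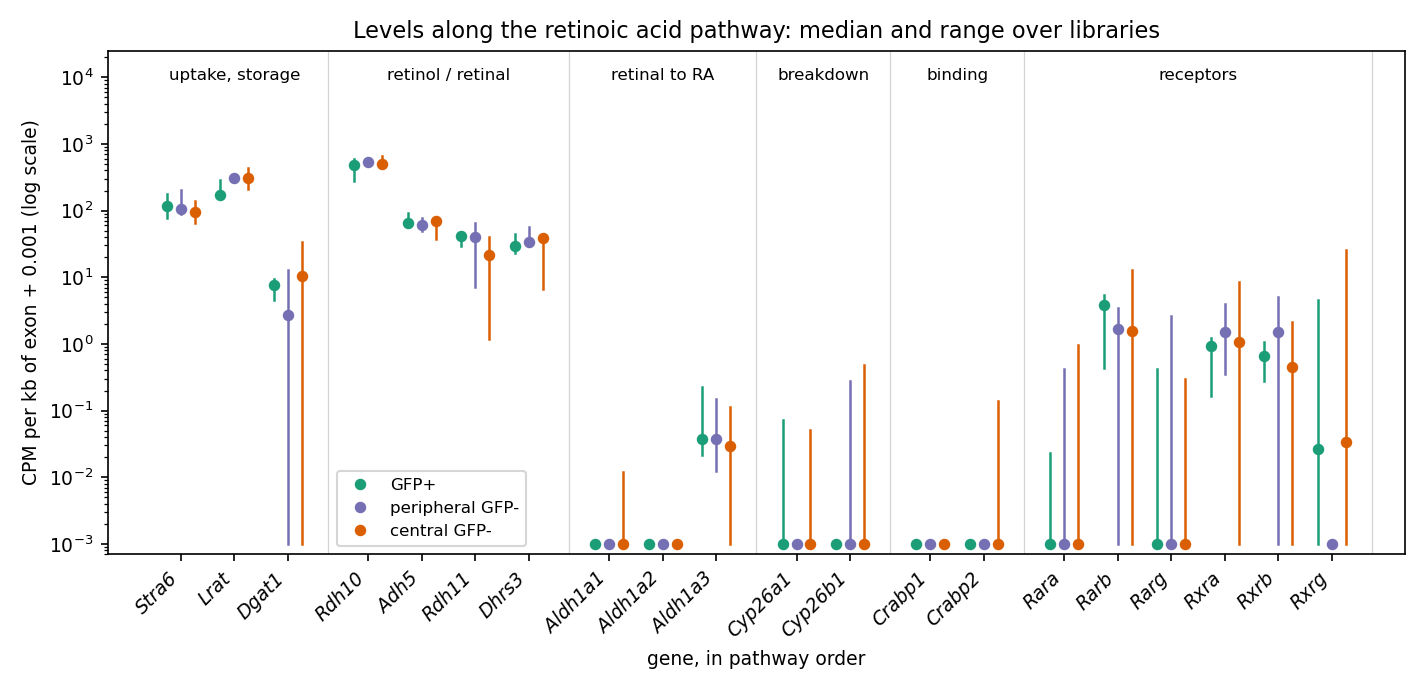
CPM per kb of exon + 0.001 (log scale) of genes in pathway order; points are medians and lines the range over the libraries of each group. Rdh10, Lrat and Stra6 lie at or above 65.4 in every library, and the Aldh1a, Cyp26 and Crabp genes below 1 in every library; the receptors run from 0 to 25.9 and overlap the enzymes.

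Of 10 genes of retinoid uptake and storage, 6 were tested in each comparison and none was called. The lowest p-values were those of Lrat. In GFP+ cells Lrat had a lowest level of 830, a median of 905 and a highest of 1538 CPM, in peripheral GFP- cells 1420, 1574, 1626, 1844 and 1884 CPM in order of level, and in central cells a lowest of 1147, a median of 1675 and a highest of 2357 CPM. The GFP+ libraries of mice 1 to 4 lie below every GFP- library, and those of mice 5 and 7 overlap them. The log2 fold change of Lrat was -0.79 (SE 0.23, adjusted p = 0.174, edgeR) against central and -0.65 (SE 0.20, adjusted p = 0.595, edgeR) against peripheral GFP- cells. Both fail the adjustment.

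Bco2, which cleaves carotenoids, was the only tested gene of that list whose group ranges did not overlap in a comparison. It had 3.81 to 12.8 CPM in GFP+ and 14.2 to 33.9 CPM in peripheral GFP- libraries, with a log2 fold change of -1.33 (SE 0.70, adjusted p = 0.935, edgeR). Of all genes tested, 0.663% had separate ranges in that direction. Central libraries ran from 0 to 53.2 CPM and covered both. Ttr, the plasma retinol carrier's partner and a major RPE transcript, averaged 34752, 30573 and 27746 CPM in the 3 groups, Stra6 706, 695 and 592 and Dgat1, an acyltransferase, 22.6, 12.3 and 41.9 CPM. The median log2 fold change of the tested genes of the list was -0.49 for GFP+ against central cells, beside 0.00 over all genes tested.

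Of 14 genes of retinol oxidation and retinal reduction, 8 were tested in each comparison and none was called, nor did any reach an unadjusted p under 0.05 in edgeR. Rdh10 averaged 1913 CPM in GFP+, 2181 in peripheral GFP- and 2143 in central cells, and its log2 fold change of GFP+ against central cells was -0.23 (SE 0.22). Adh5 averaged 375, 328 and 345 CPM, Rdh11 134, 118 and 78.1, Dhrs3 89.2, 110 and 91.9, Rdh14 40.1, 51.6 and 43.1, Dhrs4 19.3, 14.9 and 19.6, and Rdh12 10.2, 5.13 and 6.07 CPM in the same order. Dhrs9, Adh1, Adh4 and Adh7 never exceeded 3 counts. The median log2 fold change of the list was -0.02 against central and 0.21 against peripheral GFP- cells, beside 0.00 and 0.01 over all genes tested. Of 5 further genes of retinal oxidation and breakdown (Aldh1a7, Aldh8a1, Aox1, Cyp26c1 and Cyp1b1) none was tested, and none exceeded 1 count in a GFP+ or peripheral GFP- library. In central libraries Cyp1b1 had 83 counts in mouse 2, Aldh1a7 and Aox1 had 13 and 14 counts in mouse 1, Aldh8a1 had at most 5 and Cyp26c1 had 0.

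**Figure D5:**
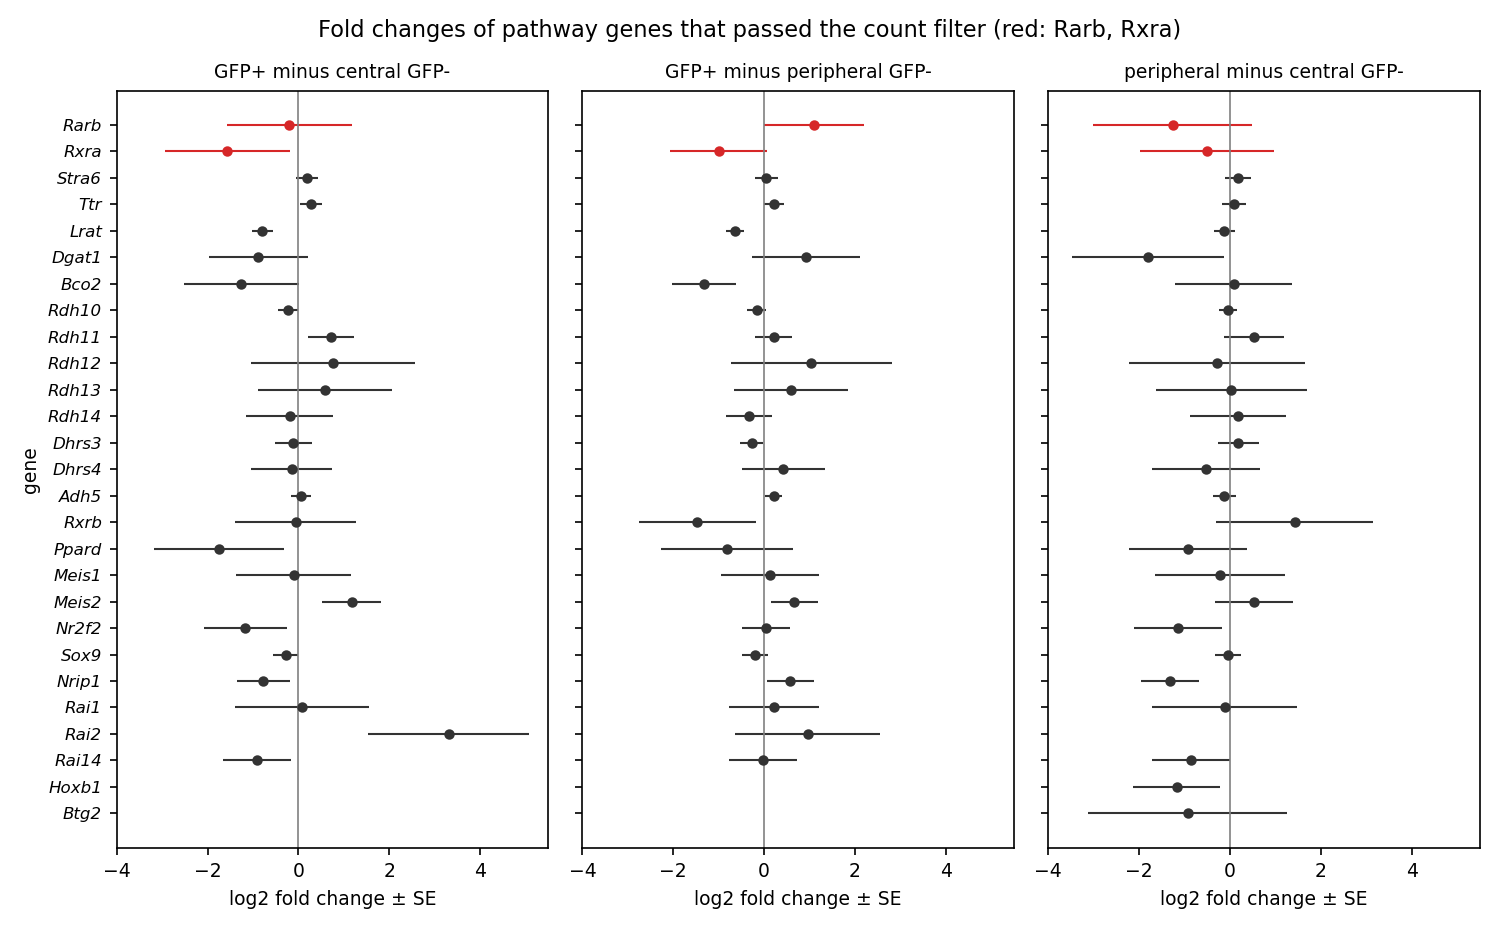
Log2 fold change ± SE (edgeR) of the members (red) and of genes of the uptake, oxidation, binding and target lists that passed the count filter, in the 3 comparisons; a missing point means that the gene did not pass in that comparison. The bars of abundant genes such as Stra6 and Rdh10 are short and close to 0, and those of Rarb and Rxra span more than 2 log2 units.

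Genes whose products work with or downstream of the receptors showed no called change. Of 17 RAR coregulators 15 were tested in each comparison and all 17 exceeded 3 counts in some library. The corepressor Ncor1 averaged 115, 144 and 170 CPM in GFP+, peripheral GFP- and central cells and the coactivator Ncoa1 112, 128 and 126. Hdac3, a histone deacetylase of corepressor complexes, averaged 54.8, 42.9 and 19.6 CPM, and Ncoa2, Crebbp, Ep300, Med1, Kmt2e, Kdm6b, Asxl1, Cnot1 and Tbl1xr1 also had a mean of at least 10 CPM in a group. Kmt2d, a histone methyltransferase, was the only one with an unadjusted p under 0.05 in edgeR, at a log2 fold change of -1.41 (SE 0.65, adjusted p = 0.825) for GFP+ against central cells. The median of the list was -0.62 against central and -0.31 against peripheral GFP- cells, with 3 and 4 of 15 higher in GFP+ cells, beside medians of 0.00 and 0.01 over all genes tested.

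Of 35 genes known as retinoic acid targets in various tissues, 12 never exceeded 3 counts, among them Foxc1. Up to 12 were tested in a comparison and none was called or reached an unadjusted p under 0.05 in edgeR. Meis2, a homeobox gene, averaged 45.0 CPM ± 24.7 (SD, n = 6) in GFP+, 28.4 ± 13.5 (n = 5) in peripheral GFP- and 18.7 ± 8.50 (n = 6) in central cells, with a log2 fold change of 1.17 (SE 0.64, adjusted p = 0.995, edgeR) for GFP+ against central cells. Sox9, a transcription factor, averaged 269, 313 and 306 CPM, Nr2f2, an orphan receptor of the dorsal eye, 31.7, 31.2 and 60.9, Nrip1, a nuclear receptor corepressor, 39.7, 26.8 and 61.8, Rai14 20.0, 20.6 and 35.5, Meis1 11.1, 10.1 and 11.6 and Rai1 11.2, 9.61 and 9.80 CPM. The median of the list was -0.11 against central and 0.06 against peripheral GFP- cells.

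Because Aldh1a1 and Aldh1a3 mark the dorsal and ventral retina, 14 dorsal and ventral eye genes were read as well. Up to 6 were tested in a comparison and none was called. Bmp4, a dorsal signal, averaged 256 CPM in GFP+, 284 in peripheral GFP- and 453 in central cells, with a log2 fold change of -0.88 (SE 0.27, adjusted p = 0.279, edgeR) for GFP+ against central cells. Tbx2, a dorsal transcription factor chosen after its values were seen, had 18 to 111 counts in peripheral GFP- and 0 to 5 in central cells (adjusted p = 1.00, edgeR), and 0 to 394 in GFP+ cells. Among genes tested between those GFP- groups, 0.64% had separate ranges with peripheral higher.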

How the data were processed

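RNA-seq was made with SMART-Seq chemistry from pools of hand-picked RPE cells, 10 to 15 per pool in the labels; the methods give 6 to 12. The table of the authors holds unnormalized counts, whole numbers for each gene symbol. The submitters' processing notes name fastp, Salmon and GRCm38.p6. Their versions, the annotation, the use of strand and any rounding of estimated counts are not given in the sources used here. Total counts were 9896118 to 22467079 per library, so that 3 counts, the limit that a count of 0 allows, are 0.116 to 0.554 CPM.

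Groups and animals came from the labels, and all sample columns were used. Each comparison was fitted on the whole table with only the libraries of its groups by edgeR (version 4.0.16) in R (version 4.3.3): default filter, TMM, quasi-likelihood test, Benjamini-Hochberg adjustment over all genes tested, calls at adjusted p under 0.01 and log2 fold change over 1. The study names DESeq2, which was run (version 1.42.0) as an alternative. Single genes were compared by two-sided exact permutation of log2(CPM + 1). Adjusted p-values of those tests run over all genes that passed the filter. The procedure was tested on simulated data. Libraries of 1 mouse come from the same animal, so their numbers pair them; their deviations from group means correlated at -0.02 to 0.09 over 15 pairs. No library was a copy of another (highest r of log2 counts 0.924 over 136 pairs). Where groups share an animal, p-values treat its libraries as separate.

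Gene positions, exon lengths and overlaps are from GENCODE M21 on GRCm38, which has the name of the submitters' build, and promoter sequences from RefSeq on GRCm38.p6. Python (version 3.11.15) drew the figures. The members and lists, and the rule for genes to be named (all 10 members, pathway genes with a mean of at least 10 CPM in a group or called, defining markers, the 3 genes most like the member and the receptor with the highest level, and Serpine3), were chosen with earlier results of these data known. Lists were retinoid uptake and storage, retinol oxidation and retinal reduction, other retinal oxidation and breakdown, other binding and receptors, RAR coregulators, target genes, dorsal and ventral eye genes, and cell type markers. Some results for single genes are left out of this text. Alternatives were DESeq2, median-of-ratios size factors, no mitochondrial genes, other filters, all groups in 1 fit, a replicate block by mouse, a covariate for the run of animal numbers, robust dispersion, other call limits, pseudocounts of 0.1 and 10, a floor of 10 counts and leaving out each library.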

Additional observations from a re-analysis of the deposited data

Results flagged for a closer look

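With 5 or 6 libraries to a group, 4 of 13 groups of members with counts had 1 library far from the others (Dixon's test at 95%, on CPM). The test is made for normal values, of which it flags about 5% of groups. These values are skewed, with many at 0, so the 4 of 13 cannot be set against that share. Rxra in central mouse 5 stood at 47.1 CPM (255 counts), and the next central library at 10.3 CPM. Rara in central mouse 1 stood at 4.21 CPM (50 counts), and the next at 0.150 CPM. Cyp26b1 in peripheral GFP- mouse 4 stood at 1.49 CPM (31 counts) while the other 4 libraries of the group had 0, a pattern that meets the test at any level. Aldh1a3 in peripheral GFP- mouse 7 stood at 0.692 CPM, which is 7 counts, and the next at 0.193 CPM. Each value is that of a single pool, and its cause was not tested.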

How the results depend on the processing

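The number of retinoic acid genes called, and of those with separate group ranges, stayed at 0 in each comparison under every alternative run, each library left out included, and the number of detectable genes over all libraries was 5 with a floor of 3 or 10 counts, although with 10 it fell from 5 to 4 in each GFP- group. The edgeR fold changes of Rarb and Rxra kept their sign for GFP+ against peripheral GFP- cells under every alternative tried (0.78 to 1.57 and -1.26 to -0.34 with 1 library left out, 1.45 and -0.80 with the block), and did not in the other comparisons. On the log2(CPM + 1) scale, however, Rxra in GFP+ minus peripheral GFP- cells was 0.21 within the first run and -1.41 within the second. For GFP+ against central cells the Rarb log2 fold change of -0.20 became 3.99 with the mouse as a replicate block, 0.025 with a covariate for the run of animal numbers, and -0.47 to 0.88 with 1 library left out (positive without GFP+ mouse 2, GFP+ mouse 4 or central mouse 7). Rxra became 0.63 with the block and -1.84 to -0.05 with 1 library left out. For peripheral against central GFP- cells the block gave 0.53 for Rarb and 0.83 for Rxra, and leaving out 1 library gave -1.73 to -0.18 and -1.15 to 0.97, the last without central mouse 5. The block changed no call. On the log2(CPM + c) scale, Rxra for GFP+ against central cells was 0.16 at c = 0.1 (exact permutation p = 0.933) and -0.80 to 0.32 with 1 library left out, and Rarb for peripheral against central cells was -0.29 at c = 10 (exact permutation p = 0.649) and -0.45 to 0.77. Rxra in that comparison was -0.12 to 1.00 with 1 library left out, the lowest without central mouse 7. The cause was not tested. Genes under 3 counts in all pools of a group cannot be told from absent at this depth.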
